A study of Mus musculus with 192 samples.

Results

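The genes described are 9 mouse collagen genes, Col1a1, Col1a2, Col3a1, Col4a1, Col4a2, Col5a1, Col5a2, Col6a1 and Col6a2, out of 11577 genes with a start peak read by the same rule. They were taken by name. Their start peaks are the called peaks on the gene's own strand in windows within 1000 bp of an annotated RefSeq start of the gene. Col4a1 and Col4a2 are transcribed away from each other from annotated starts 21 bp apart, so their peaks were told apart by strand. In all, 703 of 437538 start peaks belonged to these genes.

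The cells were mouse embryonic fibroblasts (primary connective-tissue cells from embryos) of strain C57BL/6, and all 192 received interferon-beta at 100 U/ml for 1 h. There were 96 cells labelled naive and 96 labelled pretreated. The labels leave the pretreatment unnamed and give no animal, culture or plate, and no cells without interferon-beta were analysed here. The assay, single-cell TSS-seq, reads the 5′ ends of polyadenylated RNA, and each cell has its own list of called start peaks.

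Collagens are secreted proteins of 3 chains wound into a triple helix. Types I, III and V assemble together into the fibrils of connective tissue, type IV forms the sheet-like network of basement membranes, and type VI forms beaded microfilaments, so it is neither fibrillar nor a sheet network in the strict sense. A type I molecule holds a pair of chains from COL1A1 and a chain from COL1A2, type III is made of COL3A1 alone, and fibroblasts are the main source of all of these fibrillar chains.

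Levels are given in CPM, here the tags of a gene's start peaks per 1000000 of all tags of the cells. A tag is a sequencing read. Each start tag marks an RNA end, so no correction for gene length applies. A peak was listed in a cell only from about 20 CPM, so a cell listed at 0 can hold fewer tags than that. Intervals are exact 95% intervals and cover counting error only. Those of levels, ratios and tag shares count each read as independent. Molecular identifiers are not given, so these intervals do not measure the spread between molecules or cells and can be too narrow. Each group counts as 1 sample of many cells, so no difference between the groups was tested and none has a replicate check.

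After leaving out cells with under 10% of the median total, 92 naive and 85 pretreated cells remained. Their totals ran from 305066 to 3857034 tags (median 2305628) in naive cells and from 502374 to 13174313 (median 2650490) in pretreated cells, and listed peaks held 90.1% and 84.6% of them. Of 12 fibroblast markers, 10 had start peaks, with a summed level of 744 CPM in naive and 1239 in pretreated cells; Vim, an intermediate filament gene, was listed in 92 of 92 and 84 of 85 cells at 595 and 1088 CPM. Most of the higher sum was Vim; 6 of the 10 markers were lower in pretreated cells, among them Pdgfra (9.76 and 2.53) and Dcn (3.13 and 0.513). No epithelial or muscle marker had a peak. Of the cartilage markers, Sox9 was listed in 1 naive and 3 pretreated cells. Of the neural markers, Tubb3 was listed in 3 naive and 0 pretreated cells, and Nes in 2 and 1. The endothelial marker Kdr was listed in 1 pretreated cell, and the blood markers summed to 15.5 and 21.5 CPM, with Cd14 in 15 naive and 33 pretreated cells and Cd68 in 8 and 3; Lyz2 and Csf1r were each listed in 1 naive cell and 0 pretreated cells, and Ptprc had no peak. The part of these markers in the collagen values was not tested.

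All kept cells had at least 1 listed collagen start. The summed level of the 9 genes was 782 CPM in naive cells (778 to 786) and 779 in pretreated cells (776 to 782), a log2 ratio of -0.0059. The per-cell sum ran from 21.3 to 2210 in naive cells with a median of 714, and from 142 to 2136 in pretreated cells with a median of 750. The groups therefore overlapped over nearly their whole range. A median of 4 of the 9 genes was listed per cell in both groups.

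The near-equal sum held unlike parts. Col6a2 was 5-fold higher in pretreated cells, Col3a1 and Col5a2 were lower at log2 ratios of -0.52 and -0.61, and Col1a1 was close to level. Of the 9 genes, 4 reached 50 CPM in a group (Col1a1, Col3a1, Col5a2 and Col6a2). Of these 4, 1 was at least 2-fold higher and 0 at least 2-fold lower in pretreated cells, beside 25.3% higher and 11.3% lower (36.6% either way) among all 2230 genes at that level. The 1 gene, Col6a2, reached 50 CPM in pretreated cells only (16.7 CPM in naive and 82.8 in pretreated cells). It was thus counted through the group where it was high. The median log2 ratio was -0.16 over the 4 genes and 0.38 over the 2230 genes (quartiles -0.25 and 1.01), and 3 of the 4 were below the latter. Scaling by the median of ratios over genes moved every ratio by -0.39, under which 12.8% of genes were higher and 17.6% lower, Col1a1, Col1a2 and Col6a1 turned from higher to lower, and Col5a2 reached -1.001.

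**Figure D1:**
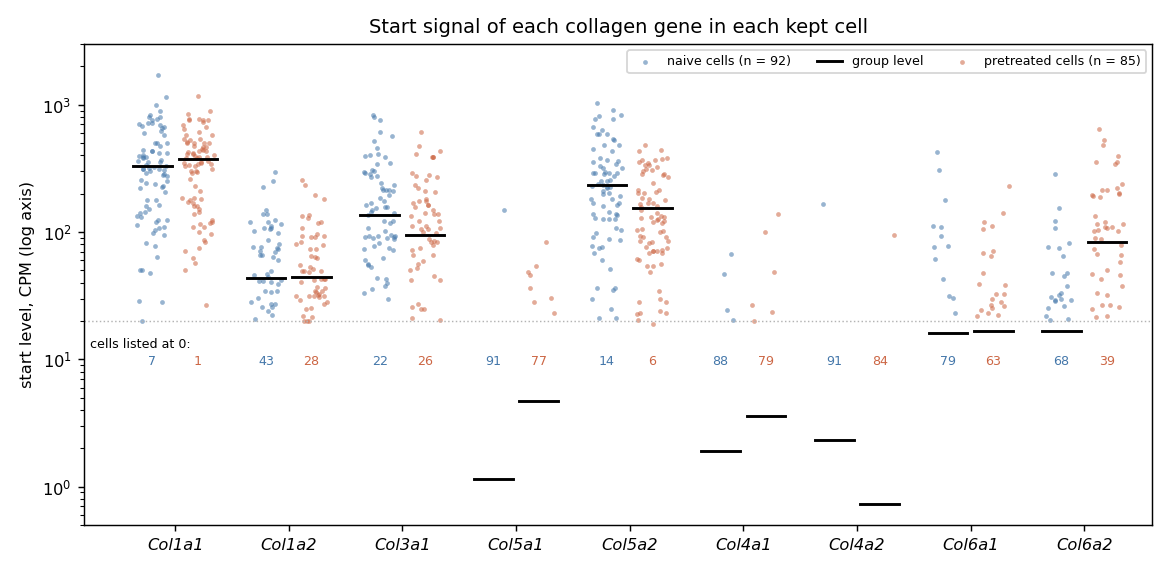
Start level in CPM (log axis) of each collagen gene in each kept cell, naive in blue (n = 92) and pretreated in orange (n = 85); the black bars are the group levels over all cells, the printed numbers are the cells listed at 0, and the dotted line is the peak minimum of 20. Col1a1 was at 0 in 7 naive cells and 1 pretreated cell, while Col4a2 was at 0 in 91 and 84 cells.

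**Figure D2:**
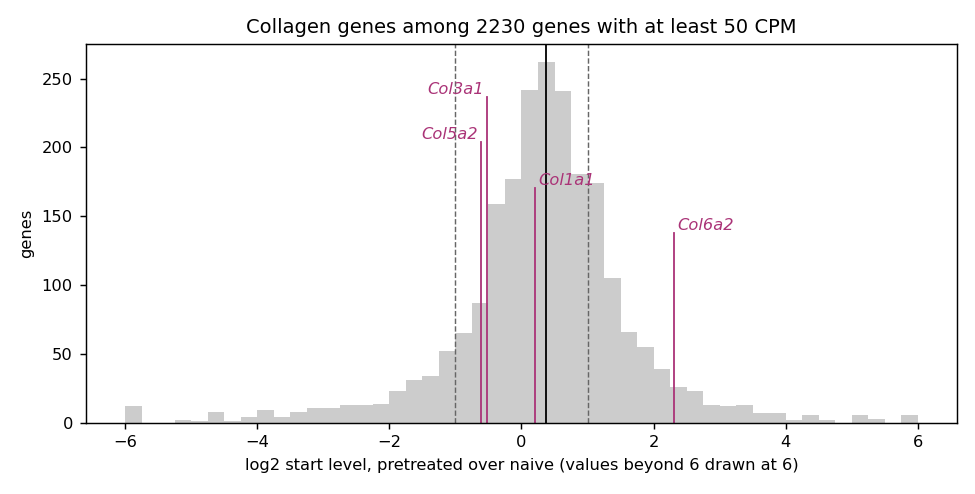
Histogram of the log2 ratio of start level, pretreated over naive, for the 2230 genes with at least 50 CPM in a group; the solid line is their median, the dashed lines mark 2-fold, and the purple lines are the 4 collagen genes at that level. Col6a2 lies at 2.31, and Col3a1 and Col5a2 lie at -0.52 and -0.61.

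Col1a1, the gene of the major chain of type I collagen, had the highest start level of the 9. It was listed in 85 of 92 naive cells (92.4%, 84.9 to 96.9) and in 84 of 85 pretreated cells (98.8%, 93.6 to 100.0). Among cells where it was listed, its level ran from 20.01 to 1707 CPM in naive cells (median 311) and from 26.7 to 1170 in pretreated cells (median 352). The group levels were 329 (326 to 331) and 377 (375 to 379), a log2 ratio of 0.20. The cell values overlapped over most of the range, and the ratio turned to -0.19 with median-of-ratios scaling.

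Its start was also the most fixed. All Col1a1 start tags of both groups lay in 1 window of 150 bp, chr11:94797494-94797643 on the + strand of build mm9, annotated as promoter and start site. The peak centre was 30 bp after the annotated start in 83 of 85 naive peaks and 79 of 84 pretreated peaks, and the other peaks lay within 2 bp of it. The focus ratio, the deposited fraction of tags that sit near the centre of their peak, had a median of 0.990 in naive and 0.976 in pretreated cells, against 0.95 and 0.863 over all genes at 50 CPM or more.

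Col1a2 encodes the other chain of type I collagen. It was listed in 49 of 92 naive cells (53.3%, 42.6 to 63.7) and 57 of 85 pretreated cells (67.1%, 56.02 to 76.9). Where listed, it ran from 20.6 to 297 CPM in naive cells (median 66.3) and from 19.96 to 255 in pretreated cells (median 49.1). Over all cells the levels were 43.4 (42.5 to 44.3) and 43.97 (43.2 to 44.7). Their log2 ratio was 0.02, with an interval from read counts of -0.02 to 0.06. The ratio was -0.37 with median-of-ratios scaling.

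At the starts the 2 type I genes were far from equal. Col1a1 had 7.57 times the start tags of Col1a2 in naive cells and 8.57 times in pretreated cells. In exon tags they were much closer, with 1551 CPM for Col1a1 and 999 for Col1a2 in naive cells and 1718 and 1248 in pretreated cells. Both genes were listed in 46 naive and 57 pretreated cells, Col1a1 alone in 39 and 27, and Col1a2 alone in 3 and 0.

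The main Col1a2 start lay 84 bp after the annotated one, in the window chr6:4455628-4455777 on the + strand of mm9, which held 70.8% of its naive and 70.9% of its pretreated tags. A further 18.5% and 10.7% came from peaks centred 1 bp before it, at 83. The start thus kept its place in both groups, but not where the annotation puts it. Centres are good to about 1 bp, so the base at the start was not read.

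The sequence before that start is shown because it holds TATAAA, the letters of a TATA box. The window around the annotated start has no such match. A TATA box is an element that places transcription starts some way downstream, but its function here was not tested. Sequences are from RefSeq on build GRCm38.p6; 7 of the 9 genes were in that promoter table, and Col1a1 and Col5a2 were not. The files use mm9, so genes were joined by their annotated starts, and the distances from Col1a2 and Col3a1 to neighbouring genes' starts agreed between the builds within 2 bp for 9 of 9 and 4 of 4 neighbours. The motifs searched in windows of 300 bases around the annotated starts, on both strands, were TATAAA and a variant of it, TATTTAA. Past the windows, only TATAAA in Col1a2 and TATTTAA in Col3a1 were searched, on the gene's strand. The gene and motif were picked beforehand there, so those matches are no test. The search also took CCAAT, a box found in many promoters. The GC box was searched as GGGCGG. Matches to different motifs do not overlap in the stretches shown. The stretch of 30 bases that starts 51 bp after the annotated Col1a2 start, at chr6:4505669-4505698 on the + strand, has TATAAA in capitals. The promoter stretch runs from 120 bases before to 4 after the annotated start, at chr6:4505498-4505622 on the + strand, with CCAAT and its reverse ATTGG in capitals.
Col1a2 TATA stretch: TATAAAtaaggcaggtctgggctttattat
Col1a2 promoter: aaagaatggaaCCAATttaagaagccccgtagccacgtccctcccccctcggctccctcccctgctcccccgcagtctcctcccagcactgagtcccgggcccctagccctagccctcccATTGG

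The first base of TATAAA lay 33 bases before the main Col1a2 start. Over 32817 RefSeq promoters, TATAAA or TATTTAA was found in 3.15% of the stretches of 30 bases from 40 to 11 before the annotated start. That count took both motifs on both strands at annotated starts, so it differs from the search past the windows and is no background for it. In the whole 300-base windows, TATAAA was found in 13.6%, CCAAT in 37.4% and GGGCGG in 35.6% of promoters. A match is a description of these letters only.

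Col3a1, the gene of type III collagen, which forms thin fibrils with type I, was listed in 70 of 92 naive cells (76.1%, 66.1 to 84.4) and 59 of 85 pretreated cells (69.4%, 58.5 to 78.95). It was the only one of the 9 genes listed in a smaller share of pretreated cells. Where listed, it ran from 29.6 to 826 CPM in naive cells (median 152) and from 20.3 to 606 in pretreated cells (median 121). Group levels came to 137 (135 to 138) and 95.5 (94.4 to 96.6), a log2 ratio of -0.52. The ratio was below 0 under every alternative run, from -0.91 to -0.42, and the cell values of the groups overlapped.

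Its leading start position differed by a few bases between the groups. In naive cells the leading position was 95 bp after the annotated start, with 46.5% of tags and 29 of 70 peaks. In pretreated cells it was 92 bp, with 33.4% of tags and 15 of 59 peaks, beside 20.8% of tags and 12 peaks at 95. Position 92 also held 15 of the 70 naive peaks, so its lead in pretreated cells rests on few cells. Peaks at 91 held 18.9% of the pretreated tags. The window of position 95, chr1:45368404-45368553 on the + strand of mm9, held 48.5% of naive tags (47.9 to 49.1) and 28.1% of pretreated tags (27.5 to 28.6). The median focus ratio was 0.917 in naive and 0.819 in pretreated cells, a difference of -0.0975 beside a median difference of -0.0745 over 2224 genes. Within 5 bp of each group's leading position lay 76.2% of naive and 93.02% of pretreated tags, so naive tags were also spread farther, with peaks of 1 or 2 cells each from 98 to 189 bp. When windows within 50 bp were joined, 97.7% and 99.8% of the tags fell in 1 site.

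The stretch before the Col3a1 starts is shown for the TATA-like motif that was searched there. It starts 63 bp after the annotated start, at chr1:45311601-45311630 on the + strand of GRCm38.p6, and its capitals mark TATTTAA.
Col3a1 TATA stretch: TATTTAAggccagagcagagggaagcgagc

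The first base of TATTTAA lay 29 bases before position 92 and 32 bases before position 95, beside the 33 bases of Col1a2. TATTTAA was found in 4.50% of the 300-base promoter windows. The Col3a1 window around the annotated start also has TATAAA at -117 and TATTTAA at -137, both farther from the measured starts.

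Type V collagen nucleates fibrils and limits their width, and its common form joins 2 chains of COL5A1 with 1 of COL5A2. Col5a2 had the second highest start level of the 9 genes in naive cells and Col5a1 the lowest. Col5a2 was listed in 78 of 92 naive cells (84.8%, 75.8 to 91.4) and 79 of 85 pretreated cells (92.9%, 85.3 to 97.4). Where listed, it ran from 21.2 to 1041 CPM in naive cells (median 226) and from 18.99 to 482 in pretreated cells (median 126). In the group sums it was at 235 (233 to 237) and 154 (153 to 155), a log2 ratio of -0.61. It was thus listed in more pretreated cells but at lower values. The ratio stayed below 0 under every alternative run, from -1.001 to -0.26, and was -0.75 without the deepest pretreated cell.

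The main Col5a2 start lay 220 bp after the annotated start, in the window chr1:45559833-45559982 on the - strand of mm9, which the deposited table places in the 5′ UTR. That window held 70.6% of naive tags (70.1 to 70.96) and 77.3% of pretreated tags (76.9 to 77.7), from 49 and 50 cells. In naive cells, 17.5% of tags came from peaks at 233 in 7 cells. The median focus ratio was 0.95 in naive and 0.867 in pretreated cells.

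Col5a1 was listed in 1 naive cell, at 148 CPM, and in 8 pretreated cells, from 23.1 to 83.8. The group levels were 1.15 (1.01 to 1.31) and 4.70 (4.45 to 4.96), both under the 50 used for the counts of 2-fold genes. The log2 ratio of 2.03 rests on that 1 naive cell. All 9 cells with a Col5a1 start also had a Col5a2 start.

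The type IV genes were rarely listed. Col4a1 had a start peak in 4 naive cells, from 20.3 to 66.9 CPM, and in 6 pretreated cells, from 19.8 to 138. Its group levels were 1.89 (1.71 to 2.09) and 3.58 (3.36 to 3.803). Col4a2 had 1 naive cell at 166 and 1 pretreated cell at 94, for levels of 2.31 (2.10 to 2.53) and 0.725 (0.630 to 0.831). No cell had both, although the genes share a promoter region. With so few cells, neither a ratio nor a main position can be read at this depth.

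At their starts the type VI genes went unlike ways, and Col6a2 had the largest ratio of the 4 genes at 50 CPM. Their products join with another chain into the type VI molecule; the gene of that chain, Col6a3, was listed in 5 naive and 5 pretreated cells at 3.92 and 4.56 CPM. Col6a2 was listed in 24 of 92 naive cells (26.1%, 17.5 to 36.3) and 46 of 85 pretreated cells (54.1%, 42.96 to 64.98). Where listed, it ran from 20.5 to 284 CPM in naive cells (median 35.4) and from 21.6 to 645 in pretreated cells (median 104.8). Over all cells the levels were 16.7 (16.1 to 17.2) and 82.8 (81.7 to 83.8), a log2 ratio of 2.31 (2.26 to 2.37). More pretreated cells were listed and at higher values, but the ranges overlapped. The ratio lay between 1.92 and 2.64 under every alternative that kept the start windows.

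The share of cells was also taken at equal depth. With each cell thinned to 1122993 tags, which left out 16 naive and 2 pretreated shallower cells, Col6a2 was listed in 22.4% of naive and 53.01% of pretreated cells. The difference at equal depth was 30.6 percentage points for Col6a2 and 8.01 for Col1a1. Without thinning, 8 of the 9 genes were listed in a larger share of pretreated cells, with a median difference of 8.16 points. Over the 4 genes at 50 CPM the median was 7.30 points, beside 17.4 points over the 2230 genes at that level. How many of the 2230 were listed in a larger share was not counted. Col6a2 differed by 28.03 points and Col1a1 by 6.43. With peaks of at least 500 tags per 10000000 only, the median difference was 1.27 points, Col1a2 was at 30.4% of naive and 30.6% of pretreated cells, Col6a1 turned to -0.37 points, and Col6a2 was at 8.70% and 37.6%.

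At the starts, Col6a1 did not follow Col6a2. It was listed in 13 of 92 naive cells (14.1%, 7.74 to 22.95) and 22 of 85 pretreated cells (25.9%, 16.99 to 36.5). Where listed, it ran from 22.99 to 424 CPM in naive cells (median 77.5) and from 21.7 to 229 in pretreated cells (median 35.5). Group levels came to 16.2 (15.6 to 16.7) and 16.8 (16.3 to 17.2), a log2 ratio of 0.05 (-0.01 to 0.11), and its sign changed with the processing, from -0.34 to 0.14. Both type VI genes were listed together in 4 naive and 13 pretreated cells, Col6a1 alone in 9 and 9, and Col6a2 alone in 20 and 33.

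The type VI starts were spread where those of type I were fixed. The 24 naive Col6a2 peaks lay at 20 positions and the 56 pretreated peaks at 38. The position with the most pretreated peaks, 79 bp after the annotated start, had 13 of them, and no position held more than 26.96% of the tags of a group. In pretreated cells 88.1% of Col6a2 tags lay within 50 bp of the position with the most tags, at 85; in naive cells 68.1% lay within 50 bp of position 39, which was 1 cell. The 13 naive Col6a1 peaks lay at 9 positions and the 23 pretreated peaks at 18. Within their peaks the tags were close together, with median focus ratios of 0.961 and 0.903 for Col6a2 and 0.985 and 0.917 for Col6a1. Over the 9 genes the median difference in focus ratio was -0.042.

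The Col6a2 promoter is shown to set beside that of Col1a2. It runs from 120 to 1 bases before the annotated start, at chr10:76623405-76623524 on the - strand of GRCm38.p6. Its capitals mark CCGCCC, the reverse of GGGCGG, with overlapping copies at the second place.
Col6a2 promoter: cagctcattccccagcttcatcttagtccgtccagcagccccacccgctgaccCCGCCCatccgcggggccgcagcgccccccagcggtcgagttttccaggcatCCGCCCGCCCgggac

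Its 300-base window has 3 copies of CCGCCC and no match to the TATA and CCAAT motifs. The peaks at 79 and 85 lie past that window, where Col6a2 was not searched. The TATAAA of Col1a2, at 51, also lies past its own window, so Col6a2 and Col1a2 were not searched alike. The Col1a2 window also has GGGCGG, at -205 and -188, before the stretch shown. The Col6a1 window had no match to any of the motifs. No match says only that these letters are not in that window.

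**Figure D3:**
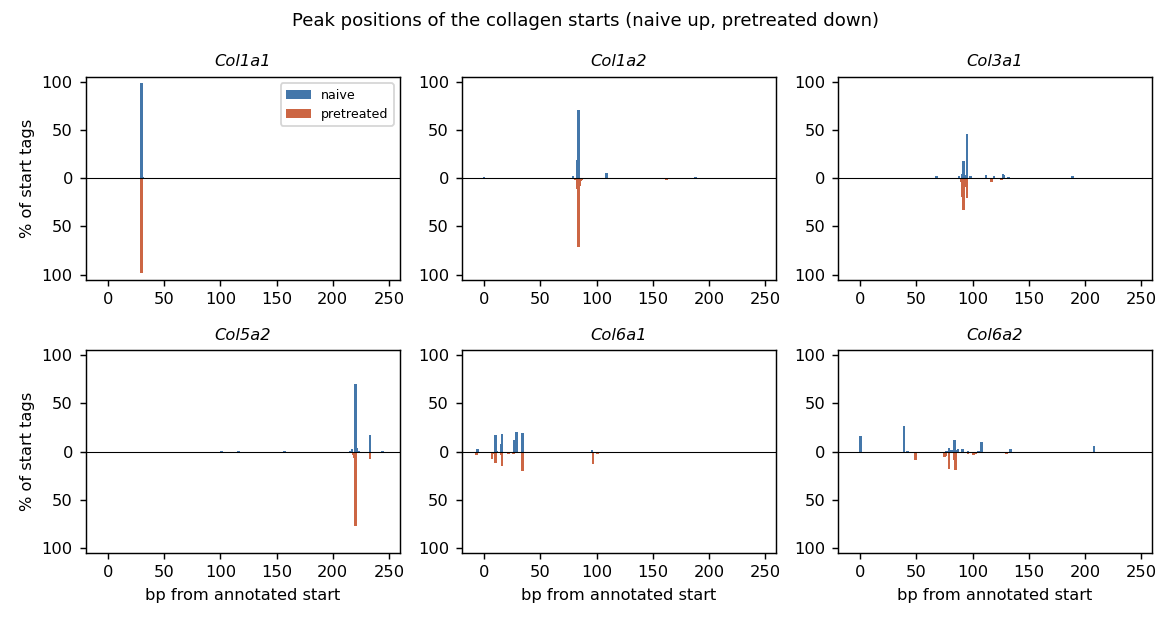
Percent of a gene's start tags at each peak position, in bp from the annotated start (drawn from -20 to 260), for 6 collagen genes, with naive cells drawn upward in blue and pretreated cells downward in orange. Col1a1 has its tags at 30 and Col1a2 at 84 in both groups, Col3a1 leads at 95 in naive and 92 in pretreated cells, and Col6a2 is spread.

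Most listed tags of the collagen genes did not lie near their starts. Counting sense peaks in the genes' own transcripts, the start windows held 17.4% of Col1a1 tags in naive and 17.8% in pretreated cells, 4.003% and 3.16% for Col1a2, 20.8% and 20.04% for Col3a1, and 41.7% and 36.96% for Col5a2. The median over the 9 genes was 6.06% in naive and 7.40% in pretreated cells, against 84.5% over 2547 genes and 90.7% over 2593 genes with at least 50 CPM. All 9 genes were below those medians in both groups. Most of the remaining collagen tags were in exons.

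The exon tags lay toward the 3′ end. The last 5 exons held 91.8% of the Col1a1 exon tags in each group, 66.4% and 75.7% for Col1a2, and 99.2% and 97.0% for Col6a2. The Col1a1 exon window found in the most cells, chr11:94811960-94812109 on the + strand of mm9 in exon 49 of 51, had a peak in 129 of the 177 cells. Whether such peaks mark RNA that starts there was not tested.

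Exon peaks were listed in more cells than start peaks for each gene and group except Col5a2 in pretreated cells, with 78 cells at the exons and 79 at the start. Col1a1 and Col1a2 had an exon peak in 100% of the kept cells, Col6a1 in 94.6% of naive and 92.9% of pretreated cells, and Col5a1 in 92.4% and 91.8%. Col4a1 and Col4a2, with starts in a handful of cells, had exon peaks in 53.3% and 70.7% of naive cells and 74.1% and 85.9% of pretreated cells. A start listed at 0 therefore does not show that the gene was silent in that cell.

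The summed exon level gave nearly the same ratio as the starts, a log2 ratio of -0.01, but Col6a2 went the other way. Its exon level was 232 CPM in naive and 118 in pretreated cells, a log2 ratio of -0.98, against 2.31 at its start. The start windows held 6.06% of its naive and 39.4% of its pretreated tags. The Col6a2 difference is therefore one of start tags and not of all the gene's tags. For Col3a1 the exon ratio was -0.50, close to the -0.52 of its start, and for Col4a2 it was -1.18, with 202 CPM in naive and 88.98 in pretreated cells. Col1a2 was at 0.32 and Col5a1 at -0.02 in exons. Col6a1 was at -0.29 in exons, so both type VI genes were lower there in pretreated cells. The exon comparison was chosen after the start values had been seen.

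**Figure D4:**
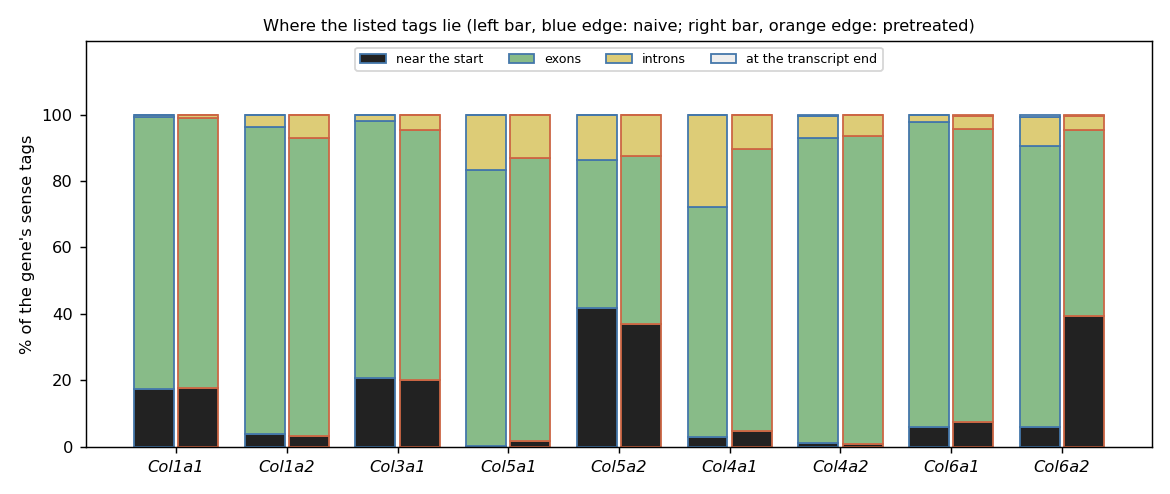
Percent of each collagen gene's listed sense tags near the start (black), in exons (green), in introns (yellow) and at the transcript end (pale), with naive cells in the left bar and pretreated cells in the right bar. The black share of Col6a2 is 6.06% in naive and 39.4% in pretreated cells, and the other 8 genes differ less between the groups.

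Across cells the genes varied together weakly. Over all 36 pairs the median rho was 0.0032 in naive and 0.12 in pretreated cells at the starts, and 0.18 and 0.17 at the exons. These are Spearman correlations within a group, over 92 naive or 85 pretreated cells that share a scaling to their own totals. Of the 9 genes, 4 were listed in 50% or more of the cells in each group (Col1a1, Col1a2, Col3a1 and Col5a2). Their 6 pairs had a median rho of 0.15 in naive cells and 0.20 in pretreated cells at the starts. Col1a1 and Col1a2 gave 0.09 and 0.28 at the starts and 0.56 and 0.63 at the exons, the highest of the exon pairs. Col6a1 and Col6a2 gave 0.46 and 0.59 at the exons. Of the 36 exon pairs, 29 were above 0 in naive and 35 in pretreated cells. A gene's start and exon levels also went together only in part, with rho of 0.23 and 0.42 for Col1a1 and -0.02 and 0.22 for Col1a2. In counts this sparse a weak value is no finding.

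**Figure D5:**
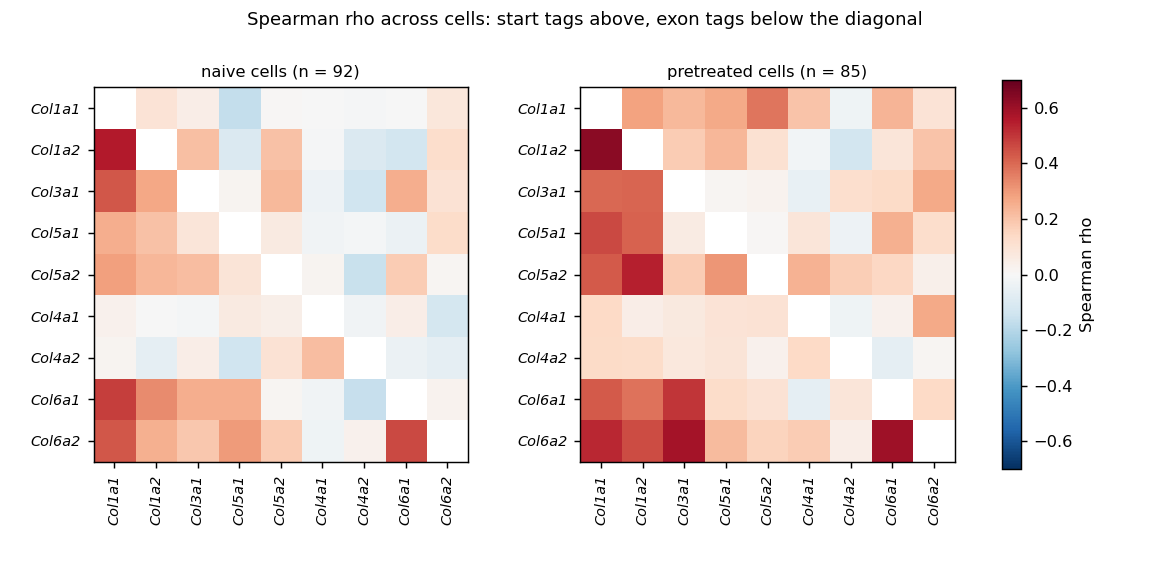
Spearman rho across cells for each pair of collagen genes, in naive (n = 92) and pretreated (n = 85) cells, with start tags above the diagonal and exon tags below it. The exon pair Col1a1 and Col1a2 reaches 0.56 and 0.63, while the start pair is at 0.09 and 0.28.

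Among 1294 other genes with a start in 50% or more of each group's cells, Sparc had the highest mean over the groups of its rho with the summed collagen starts, at 0.43 in each; in pretreated cells alone, Ogn and Pcolce were higher. Sparc encodes a secreted protein that binds collagen; its start level was 2958 CPM in naive and 3817 in pretreated cells. Next came Pcolce (0.26 and 0.48), whose product helps to cut the ends off procollagen. Aspn (0.32 and 0.34) and Ogn (0.15 and 0.49), which encode small leucine-rich proteins of the matrix, and Snhg18 (0.26 and 0.37), a non-coding RNA, followed. Aspn was at 116 CPM in naive and 34.3 in pretreated cells.

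The list for modifying, folding and exporting procollagen had 29 symbols, some of them older names of the same genes, and 19 had a start peak. Of these, 5 reached 50 CPM, with 1 at least 2-fold higher and 0 lower in pretreated cells. Over all genes at that level, 25.3% were higher and 11.3% lower. A count this small is near that background. That gene, P4hb, encodes the beta subunit of prolyl 4-hydroxylase and was at 262 and 631 CPM (log2 ratio 1.27). P4ha2, an alpha subunit of the same enzyme, was at 180 and 337 (0.90), and Ppib, a prolyl isomerase, at 1172 and 1463 (0.32). The median of the 5 was 0.67, beside 0.38 over all 2230 genes.

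Of 13 genes for cutting and crosslinking collagen, 2 reached that level and neither was 2-fold higher or lower. Pcolce was at 647 and 648 CPM, and Lox, which starts the crosslinks, at 71.2 and 76.3. Of 12 turnover genes, 3 reached it, with 1 at least 2-fold higher and 0 lower, beside the same 25.3% and 11.3%. Timp1, an inhibitor of matrix metalloproteases, was at 102 and 243 (log2 ratio 1.25), Timp3, another inhibitor, at 999 and 579 (-0.79), and Mmp3, a protease, at 84.8 and 43.7 (-0.96).

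Of 7 collagen receptor genes, 1 reached it: Ddr2, a receptor tyrosine kinase for collagen, at 106 CPM from 2 naive cells and listed at 0 in pretreated cells. Itgb1, the beta chain of the collagen-binding integrins, was at 8.15 and 21.6. Smad2, a signal carrier of the TGF-beta pathway, a known inducer of collagen genes, was at 12.7 and 20.9.

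None of the 11 other collagen genes with start peaks reached 50 CPM. Col8a1, of a short-chain network collagen, was at 16.4 and 12.8. Col14a1, of a collagen that sits on fibrils, was listed in 18 naive cells, at a group level of 14.96, and in 0 pretreated cells.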

How the data were processed

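Each of 192 cells had a peak list made by HOMER in its start-site mode, per the file headers: peaks of 150 bp at least 300 bp apart, per strand, from 200 tags per 10000000, with 2-fold excess over 10000 bp and p of 1e-04. Peak signal was deposited as tags brought to a depth of 10000000, as the headers state, and the deposited focus ratio is a fraction from 0 to 1. The score of distance to the nearest RefSeq start is as deposited by the authors, on mm9. Bowtie2 and HOMER are named in the submitters' processing notes; versions, read filters and molecular identifiers are not given in the sources used here. Tags were recovered as signal times total divided by 10000000, all whole within 0.1 (426263116 tags, equal to the header sums). The authors' 384 unnamed matrix columns were not used here.

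Cells under 10% of the median total (2305627.5 tags) were left out. Strands came from GENCODE vM21 for 12320 of 12499 symbols. Tags were summed per group, divided by summed totals (CPM, per 1000000 tags), with 0.5 tags added in ratios; 2-fold was counted from 50 CPM. Printed intervals are exact Poisson or Clopper-Pearson at 95%. The ratio and the 2-fold call were tested on simulated Poisson counts, and the window and strand rule on made-up peaks (Python 3.11.15, pandas 2.3.3, scipy 1.17.1). The simulated counts had no peak minimum. Intervals, positions, focus ratios, exon sums, thinning and correlations were not tested in this way. No test between groups was run because each group is 1 sample. The members and lists were chosen with earlier results of these data known. Named genes are the 9 members, the 5 genes most like their sum, and for each list the 2 highest and the 2 with the largest ratio among those at 50 CPM. A result of the TGF-beta list is not reported here.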

Additional observations from a re-analysis of the deposited data

Results flagged for a closer look

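Antisense peaks within 1000 bp of the collagen starts entered none of the main values. Adding them moved the log2 ratio of Col1a2 from 0.02 to 0.11, of Col5a1 from 2.03 to 2.58 and of Col6a1 from 0.05 to -0.25. Around Col1a2 they held 43 tags in naive cells, from 1 cell, and 877 tags in pretreated cells, from 7 cells, the nearest 174 bp from the annotated start. Around Col5a1 they held 633 tags from 5 pretreated cells, with no such peak listed in naive cells. Around Col6a1 they held 935 tags from 4 naive cells and 201 tags from 4 pretreated cells. Around Col1a1 they held 88 tags from 1 pretreated cell. These values were singled out because the data lie outside the main measurement. No control sample exists for them, and the group difference was not tested.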

How the results depend on the processing

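No paired analysis was possible because the cell numbers only name cells and each group is 1 sample. The summed log2 ratio moved from -0.0059 to 0.0853 with scaling to listed peaks, -0.40 with median-of-ratios scaling, -0.0754 as a mean over cells, 0.0099 in cells with at least 50% of the median total, 0.0123 without the highest cell of each gene, and -0.0486 without the deepest pretreated cell, an alternative chosen after seeing the data. The count of genes 2-fold higher or lower moved from 1 to 2 with median-of-ratios scaling, 3 with no minimum level and 0 with a minimum of 200 CPM. Of all genes called 2-fold, 69.2% were higher in the main scaling and 42.2% with median-of-ratios scaling. The median difference in the share of the leading window, -13.2 points over 8 genes (Col4a2 was tied), used the window with the largest sum of its shares in both groups. For Col4a1, Col5a1 and Col6a2 that window rests on 1 naive cell and 0 pretreated cells, so their differences follow from the choice and the median describes little. It became 1.74 with windows within 50 bp joined, 0 within 150 bp, 0.376 as a mean over cells and -12.5 within 300 bp. The Col6a2 ratio turned to -0.98 in exon windows, also chosen after seeing the data; the cause was not tested. The median difference in the share of cells with a start, 8.16 points, was 1.27 with a peak signal of at least 500 and from 6.89 to 8.31 under the other settings. Focus ratios had a median difference of -0.042, from -0.054 to -0.0372. Correlations among starts, for the 6 pairs of 4 genes over both groups, had a median of 0.19, from 0.16 to 0.19. Both stayed within intervals taken only for this check, from 1 gene for focus ratios and from 1 rho for correlations. The list counts were run under 1 setting. Depth limits what a listed peak can show: about 20 CPM.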
